A study of Mus musculus with 28 samples.

Results

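Keratins are the intermediate filament proteins of epithelia and their appendages. The genes described here are the 49 mouse keratin genes outside simple epithelium, chosen as every gene of the RefSeq table of GRCm38.p6 whose symbol is Krt, a number and at most 1 further letter, without the simple-epithelium keratins Krt7, Krt8, Krt18, Krt19 and Krt20. They are 49 of 49550 gene regions on chromosomes 1 to 19 and X, a region being the gene from start to end plus 2 kb on both sides. The 25 members on chromosome 11 span 1037.2 kb (chr11:99232761-100269951) and hold the acidic type I keratins. The 24 members on chromosome 15 span 648.3 kb (chr15:101348315-101996624) and hold the basic type II keratins. By class, 11 are epithelial type I and 12 epithelial type II keratins, 9 and 6 are hair keratins of type I and II, 4 and 4 are inner root sheath keratins of type I and II, and 3 (Krt222, Krt88, Krt90) were left without a class. Krt74 is annotated as a transcribed pseudogene.

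A keratin filament is built from an acidic type I chain paired with a basic type II chain, and tissues differ in the pairs they use. Krt5 and Krt14 mark the basal layer of skin, Krt1 and Krt10 the layers above it, and Krt6a, Krt16 and Krt17 wounded or fast-growing epidermis and the hair follicle, while hair and inner root sheath keratins are best known from the hair follicle. Histone H3 trimethylated at lysine 9 (H3K9me3) is a mark of silenced chromatin, deposited among others by the methyltransferase Setdb1, and histone H3 acetylated at lysine 9 (H3K9Ac) is a mark of active promoters and enhancers.

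The study profiled both marks in the mouse colon adenocarcinoma line MC38 and in the mouse melanoma line B16OVA (B16 below), which expresses ovalbumin. MC38 Setdb1 KO and B16 Setdb1 KO cells carried a CRISPR construct with a guide against Setdb1, MC38 control and B16 control cells carried the empty vector pCRISPR-v2-puro, and all were grown under puromycin. Chromatin was cut with micrococcal nuclease, with fewer cells put in for H3K9Ac than for H3K9me3. Each of the 4 groups had 3 numbered libraries per mark, 24 in all, and the labels do not say whether these came from separate cultures or how many KO clones they hold, so the p-values reflect variation among these libraries, which may be technical.

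Each library is a list of islands, stretches of 200 bp bins enriched for reads, with the reads in each. A value of 0 means that no island was called there and not that reads were absent. Values are island reads per 1000000 counted reads after scaling between libraries (RPM). A lower value can mean fewer cells with the mark or less of it per cell, and these cannot be told apart. H3K9me3 libraries held 15200766 to 45419584 island reads over 215 to 563 Mb, and H3K9Ac libraries held 28453371 to 78087809 over 380 to 470 Mb. The melanocyte list fitted the labels: H3K9Ac over its 9 genes summed to 190 to 328 RPM in MC38 KO and 205 to 286 RPM in MC38 control libraries, against 1032 to 1422 RPM in B16 KO and 1064 to 1693 RPM in B16 control libraries, and all 9 were lower in MC38 in both genotypes. The H3K9Ac sum over the 9 gut epithelium markers was lower in MC38 too, although MC38 is a colon line. They summed to 135 to 170 RPM in MC38 KO and 127 to 156 RPM in MC38 control libraries, against 173 to 240 RPM in B16 KO and 175 to 238 RPM in B16 control libraries, so that every MC38 library lay below every B16 library. Among the 9, only 1 was called lower in each genotype, beside 9.6% of all regions in controls and 9.04% in KO cells. The median marker differed by -0.275 log2 in controls and -0.288 log2 in KO cells. H3K9Ac reads over the Setdb1 gene do not test the knockout; they averaged 111 ± 5.25 RPM in MC38 KO and 96.2 ± 7.74 RPM in MC38 control, and 78.8 ± 8.98 RPM in B16 KO and 76.7 ± 5.06 RPM in B16 control libraries (SD, n = 3 each).

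Promoters of 32 members are in the RefSeq promoter table of GRCm38.p6 (33 sequences of 300 bases, 250 before to 50 after the start, since Krt13 has 2). The 4 shown here were chosen, after their values had been seen, for where islands of the marks lay. Krt27, an inner root sheath keratin, and the hair keratins Krt31 and Krt32 have promoters fully under an H3K9me3 island in some groups and not in others, and Krt78, an epithelial type II keratin, has a promoter under an H3K9Ac island. All are on the minus strand, and capitals mark the letters TATAAA, CTCCACCC or CTTTGAAG on either strand.
Krt27 (chr11:99351069-99351368): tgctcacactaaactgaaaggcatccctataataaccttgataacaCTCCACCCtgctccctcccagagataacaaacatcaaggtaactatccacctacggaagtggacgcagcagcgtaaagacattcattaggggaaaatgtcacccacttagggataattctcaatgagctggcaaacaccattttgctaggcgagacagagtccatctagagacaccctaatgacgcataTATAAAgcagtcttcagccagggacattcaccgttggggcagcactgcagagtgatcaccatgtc
Krt31 (chr11:100050502-100050801): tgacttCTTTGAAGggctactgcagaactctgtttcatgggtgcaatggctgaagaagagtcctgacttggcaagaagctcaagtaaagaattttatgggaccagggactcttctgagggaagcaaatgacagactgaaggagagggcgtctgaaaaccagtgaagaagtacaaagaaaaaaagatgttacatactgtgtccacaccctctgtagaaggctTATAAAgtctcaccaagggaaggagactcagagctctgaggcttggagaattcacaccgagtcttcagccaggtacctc
Krt32 (chr11:100088220-100088519): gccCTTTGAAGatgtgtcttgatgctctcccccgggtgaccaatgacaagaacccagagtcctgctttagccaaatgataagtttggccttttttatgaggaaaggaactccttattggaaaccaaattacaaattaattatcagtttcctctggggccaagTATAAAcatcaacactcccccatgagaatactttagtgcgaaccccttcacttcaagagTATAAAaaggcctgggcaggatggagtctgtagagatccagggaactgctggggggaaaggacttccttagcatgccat
Krt78 (chr15:101954238-101954537): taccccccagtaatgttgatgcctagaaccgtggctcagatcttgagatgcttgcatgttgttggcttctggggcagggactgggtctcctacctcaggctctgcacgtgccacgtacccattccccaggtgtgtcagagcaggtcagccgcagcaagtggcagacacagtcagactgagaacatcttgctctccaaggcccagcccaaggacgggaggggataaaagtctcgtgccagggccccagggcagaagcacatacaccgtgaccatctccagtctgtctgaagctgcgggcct

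H3K9me3 islands covered the whole Krt27 promoter in 2 of 3 B16 KO libraries and in none of the other 9. They covered the Krt32 promoter in 2 MC38 KO and 2 MC38 control libraries and in 0 B16 libraries, and the Krt31 promoter in 2 MC38 KO, 2 MC38 control and 1 B16 KO library. H3K9Ac islands covered the Krt78 promoter in 1 MC38 KO, 1 MC38 control, 1 B16 KO and 2 B16 control libraries. The letters TATAAA, searched on both strands, were in 17 of the 33 member promoters (51.5%), against 4455 of all 32619 promoters in the table (13.7%). They were in 12 of 20 on chromosome 11 and 5 of 13 on chromosome 15, among them 4 of 4 inner root sheath type I and 3 of 3 type II promoters. CTTTGAAG was in 5 member promoters (15.2%), those of the hair type I keratins Krt31, Krt32, Krt33b, Krt34 and Krt39, against 1.64% of all promoters, and CTCCACCC was in 6 (18.2%) against 4.89%. These last 2 strings were picked after the sequences had been seen, and matches of the 3 strings overlapped at 0 places in the 33 promoters. A match says only that these letters are in the window.

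H3K9me3 lay over more of the keratin genes in B16 than in MC38. Of the 49 members, MC38 KO libraries had an island at 1, 17 and 7 and MC38 control libraries at 4, 20 and 5, while B16 KO libraries had islands at 22, 34 and 35 and B16 control libraries at 25, 24 and 16. The ranges of the lines overlap through the second replicates of MC38. In those 2 libraries members carried islands more often (34.7% and 40.8%) than all 21627 protein-coding regions did (24.6% and 26.1%), and in the other 4 MC38 libraries less often. In B16, 32.7% to 71.4% of members carried islands, above the 26% to 33.8% of protein-coding regions within each library. MC38 KO replicate 1 covered the largest length of genome of the 12 H3K9me3 libraries, 563 Mb, and its single member with an island was Krt32.

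**Figure D1:**
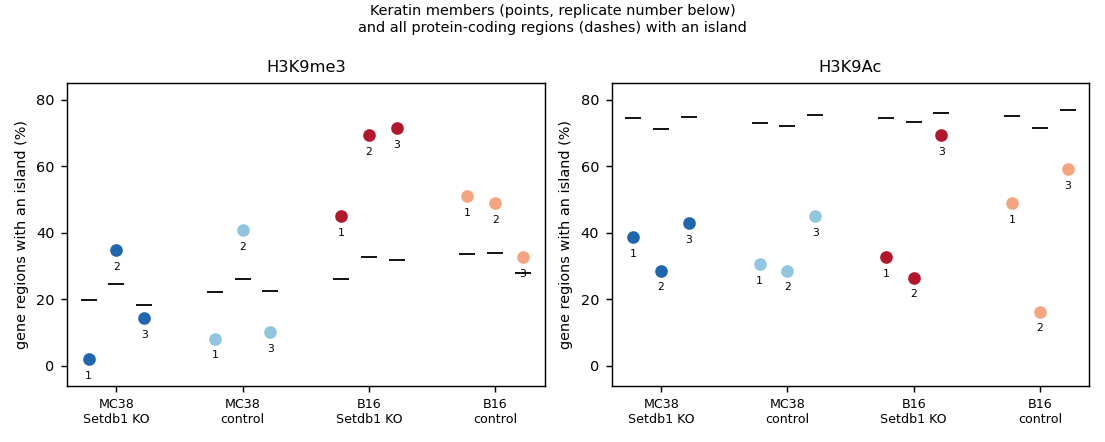
Share of gene regions with an island (%, vertical axis) in each library of the 4 groups, for H3K9me3 (left) and H3K9Ac (right). Points are the 49 keratin genes with the replicate number below, and dashes are all 21627 protein-coding regions of the same library. For H3K9me3 the 6 B16 points run from 32.7% to 71.4% and the 6 MC38 points from 2.04% to 40.8%; for H3K9Ac every point lies below its dash.

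Summed over the members of a cluster, H3K9me3 followed the same order. On chromosome 11 the members held 11.1, 179 and 161 RPM in MC38 KO and 34.1, 312 and 89.9 RPM in MC38 control libraries, against 364, 538 and 444 RPM in B16 KO and 339, 382 and 285 RPM in B16 control libraries. Only MC38 control replicate 2 came above a B16 library there. On chromosome 15 they held 0, 187 and 14.9 RPM in MC38 KO and 6.71, 105 and 38.3 RPM in MC38 control libraries, against 106, 394 and 306 RPM in B16 KO and 184, 240 and 132 RPM in B16 control libraries. KO and control libraries of the same line overlapped in each of these comparisons. B16 KO replicate 1 was below all 3 B16 controls on chromosome 15, and the other 2 B16 KO libraries were above them.

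The densest H3K9me3 of chromosome 11 differed between the lines. By mean RPM per kb of region over the 12 libraries, Krt31 (2.87), Krt32 (2.55), Krt34 (2.43) and Krt39 (2.22), all type I hair keratins of the hair shaft, led chromosome 11, while the hair keratins Krt33a, Krt35 and Krt36 had at most 0.347. Krt31 and Krt32 stood first in MC38, at 3.11 and 3.65 RPM per kb in KO and 3.17 and 3.5 in control cells. In B16 Krt39 stood first, at 5.03 RPM per kb in KO and 3.70 in control cells, followed by Krt24, an epithelial type I keratin chosen for naming after its values were seen, at 4.25 and 3.24, and Krt32 had 1.59 and 1.46. Krt32 had islands in 11 libraries: 11.1, 69.0 and 45.1 RPM in MC38 KO, 20.9, 75.6 and 23.5 RPM in MC38 control, 7.64, 38.8 and 8.06 RPM in B16 KO, and 18.7 and 31.4 RPM with 1 library at 0 in B16 control. The stretch chr11:100086401-100087800, inside Krt32 near its 5′ end, was under an island in all 6 MC38 libraries. The islands of the B16 libraries shared no such stretch within the gene.

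Krt31 reached 29.7 and 44.2 RPM in MC38 KO replicates 2 and 3 and 35.7 and 39.4 RPM in the MC38 controls of the same numbers, with no island in replicate 1 of either. In B16 it held 11.1, 16.7 and 40.2 RPM in KO and 22.3, 19.3 and 13.2 RPM in control libraries. The lines overlapped at Krt31 and at Krt32. Krt34 held 0, 13.9 and 11.4 RPM in MC38 KO and 1.68, 34.3 and 27.1 RPM in MC38 control, against 35.4, 27.9 and 20.1 RPM in B16 KO and 29.2, 27 and 11.7 RPM in B16 control libraries.

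Krt39 was nearly without islands in MC38, unlike Krt31, Krt32 and Krt34. The hair keratins Krt35, Krt36 and Krt40 also had an island in 1 KO and 1 control library of MC38. For Krt36 these 2 were the only islands, with none in B16. Krt39 held 2.60 RPM in MC38 KO replicate 2 and 3.19 RPM in MC38 control replicate 2 and nothing in the other 4, against 69.6, 49.0 and 68.2 RPM in B16 KO and 52.6, 43.9 and 40.9 RPM in B16 control libraries. Lines did not overlap, and KO and control overlapped in each. The difference between lines was -5.41 log2 in controls (SE 2.43, adjusted p = 0.20) and -6.15 log2 in KO cells (SE 2.52, adjusted p = 0.164), and without MC38 KO replicate 2 the adjusted p between the KO groups was 0.0471 (edgeR's quasi-likelihood test with Benjamini-Hochberg adjustment, as for every adjusted p below).

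**Figure D2:**
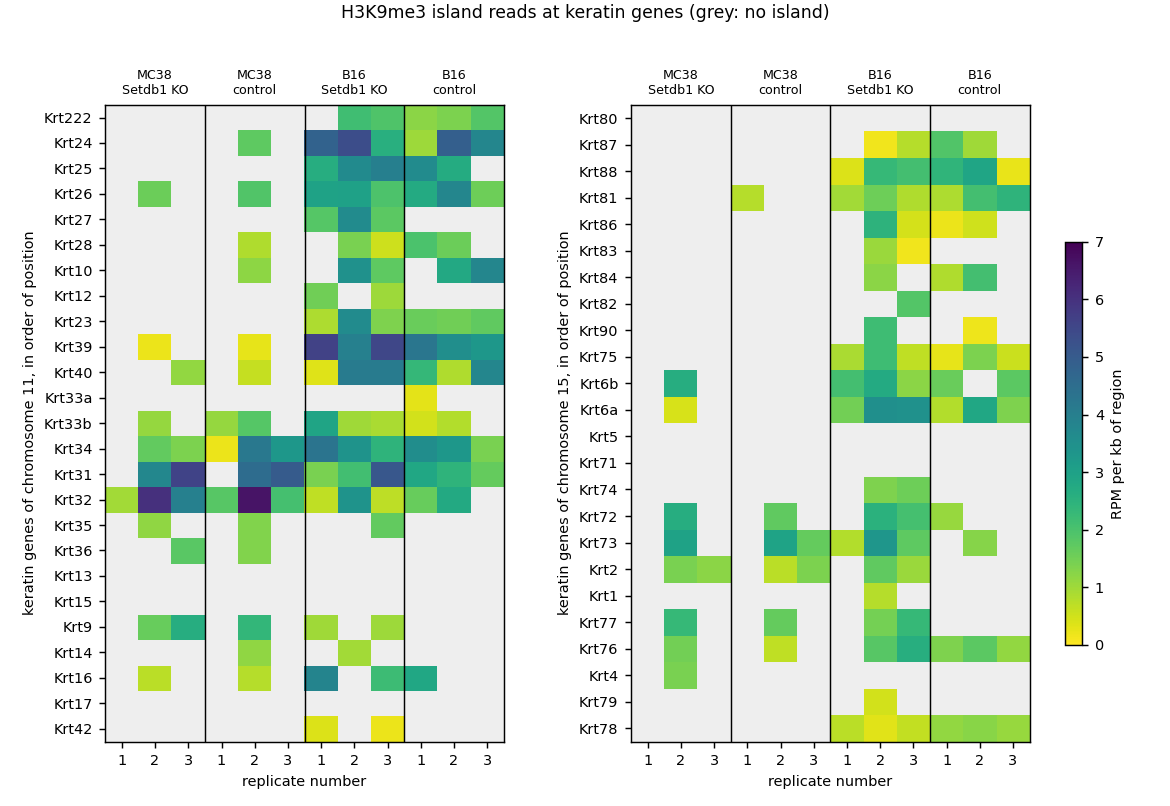
H3K9me3 RPM per kb of region (color) for each keratin gene (rows, in order of position) in the 12 libraries (columns, by group and replicate number), chromosome 11 left and chromosome 15 right; grey means no island. Krt31, Krt32 and Krt34 are colored in both lines, while most other members are colored mainly in B16 and in the second replicates of MC38.

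On chromosome 15 the densest members by the mean over all 12 libraries were Krt73, an inner root sheath keratin, at 1.23 RPM per kb, Krt6a at 1.16, Krt6b at 1.00 and Krt76, an epithelial keratin of the oral mucosa, at 0.903. This order does not hold within B16 controls, where Krt73 had 0.424 RPM per kb, below Krt88 at 1.85, Krt81 at 1.80 and Krt6a at 1.66. Krt73 held 38.7 RPM in MC38 KO replicate 2 alone and 38.5 and 21.4 RPM in MC38 control replicates 2 and 3, against 10.4, 43.4 and 22.8 RPM in B16 KO and 16.6 RPM in B16 control replicate 2 alone. Krt6a had 3.53 RPM in MC38 KO replicate 2 and no other MC38 island, against 12.6, 29.6 and 29.1 RPM in B16 KO and 6.82, 23.6 and 11.3 RPM in B16 control libraries. Krt6b had 21.9 RPM in MC38 KO replicate 2 and no MC38 control island, against 17.3, 22.4 and 10.1 RPM in B16 KO and 13.3, 0 and 14.6 RPM in B16 control libraries. Krt76 had islands in MC38 replicate 2 alone, at 18.6 RPM in KO and 8.45 RPM in control, against 0, 22.9 and 33.0 RPM in B16 KO and 17, 22.2 and 14.1 RPM in B16 control libraries. All 4 overlapped between KO and control in B16. Krt6a and Krt6b are near-identical genes whose reads may be shared.

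Of the skin keratins, several were outside H3K9me3 islands and others, Krt6a (above), Krt10 and Krt16 among them, were not. Krt5, Krt15, Krt17 and Krt80 had none in any library, as had Krt13 and Krt71, which makes 6 members of 49. Krt14 had 8.18 RPM in B16 KO replicate 2 and 9.69 RPM in MC38 control replicate 2 and nothing elsewhere, and Krt1 had 7.39 RPM in B16 KO replicate 2. Krt10 had 56.0 and 28.1 RPM in B16 KO replicates 2 and 3, 44.9 and 61.5 RPM in B16 controls of the same numbers and 19.1 RPM in MC38 control replicate 2. Krt16 held 26.1 and 14.9 RPM in B16 KO replicates 1 and 3, 19.3 RPM in B16 control replicate 1, and 4.98 and 5.26 RPM in replicate 2 of MC38 KO and MC38 control.

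H3K9me3 was denser in several gaps between the members than over them. The 98.1 kb between Krt75 and Krt6b, which holds 5 genes that are no members, was the densest gap of 30 kb or more on chromosome 15 in B16, with 0.976, 4.66 and 0.778 RPM per kb in MC38 KO, 0.204, 1.53 and 0.752 in MC38 control, 5.49, 5.02 and 5.04 in B16 KO and 4.86, 4.52 and 4.79 in B16 control libraries. The members of that cluster averaged 0.802 ± 0.442 RPM per kb in B16 KO and 0.553 ± 0.162 in B16 control (SD, n = 3 each). B16 KO libraries were above B16 control libraries at this gap, which was singled out after its values were seen and was not tested. The 34.6 kb between Krt14 and Krt16 held islands in all 12 libraries, which covered a mean of 37.3% of the gap in MC38 KO, 36.0% in MC38 control, 59.8% in B16 KO and 54.4% in B16 control. Its mean was 2.96 ± 1.24 RPM per kb in MC38 KO, 2.88 ± 0.738 in MC38 control, 3.83 ± 0.415 in B16 KO and 4.13 ± 0.336 in B16 control (SD, n = 3 each). Between Krt40 and Krt33a, 464.0 kb with 23 keratin-associated protein genes held 0.533 ± 0.398, 0.602 ± 0.282, 2.098 ± 0.306 and 1.73 ± 0.20 RPM per kb in MC38 KO, MC38 control, B16 KO and B16 control (SD, n = 3 each).

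**Figure D3:**
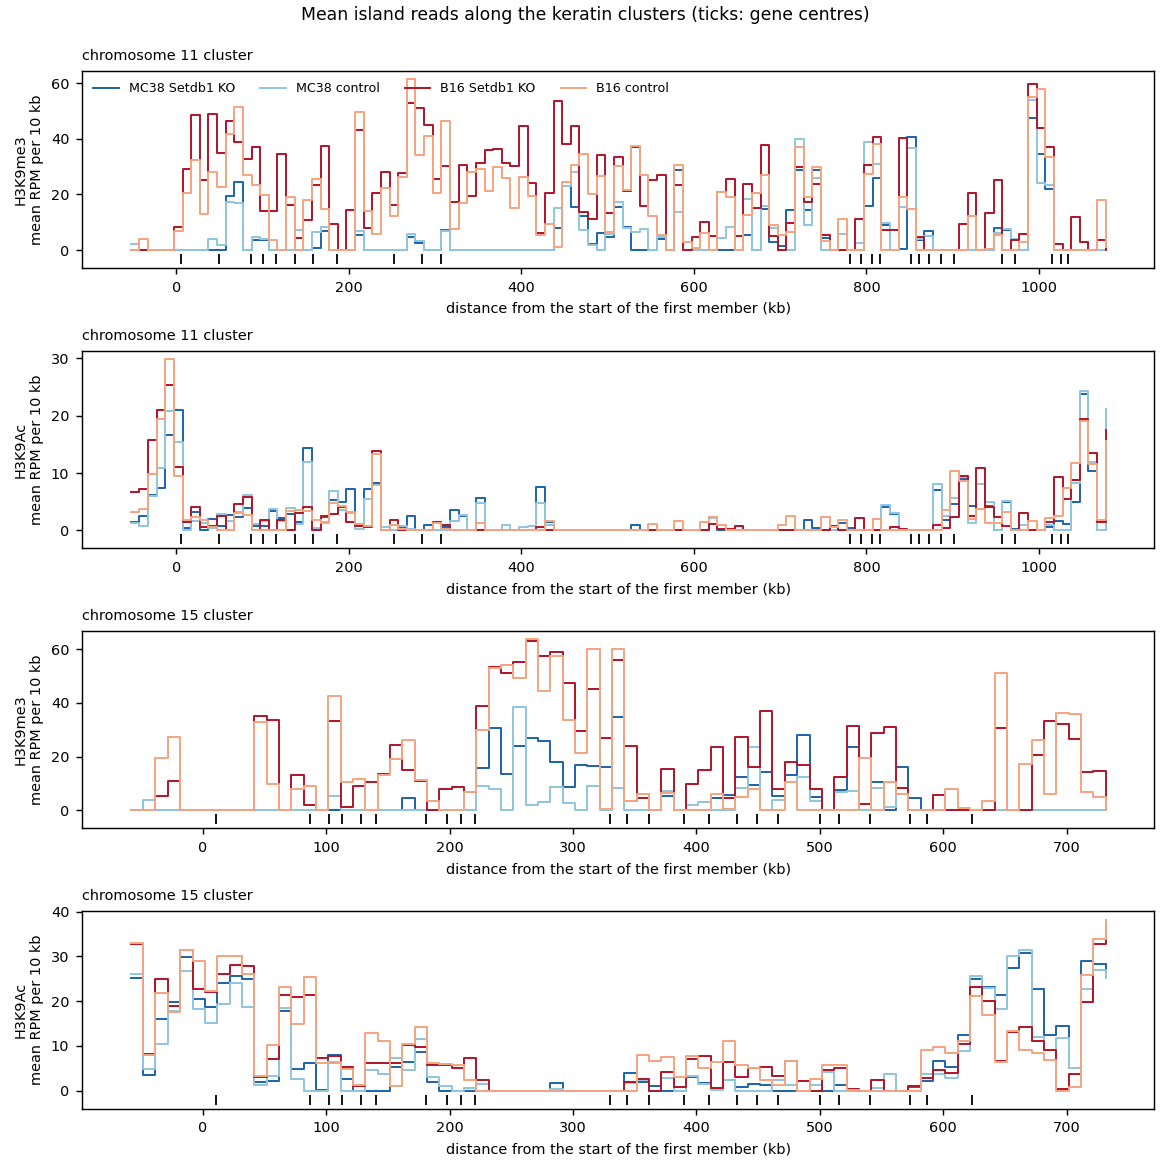
Mean RPM per 10 kb (vertical axes) in each group along the 2 clusters, by distance from the start of the first member (kb); ticks mark gene centres. H3K9me3 runs through most of the chromosome 11 cluster in B16 and is highest on chromosome 15 in the gap between Krt75 and Krt6b, and H3K9Ac is highest at the ends of both clusters.

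Setdb1 KO left no keratin gene with a called H3K9me3 change in either line. Of the 38 members that passed the filter of a mean of 10 island reads (20 on chromosome 11 and 18 on chromosome 15), 0 were higher and 0 lower in MC38 KO than in MC38 control, where 0.0117% and 0.125% of all 25675 regions tested were called in those directions. At an unadjusted p under 0.05 there were 4 (6.85% of all regions), and DESeq2 called 1 higher and 3 lower (3.68% and 5.13% of the regions it gave an adjusted p). In B16 KO against B16 control 0 were called in each direction, beside 0.164% and 0.148% of all regions, with 2 at an unadjusted p under 0.05 (7.73% of all regions) and 4 higher and 0 lower called by DESeq2 (5.61% and 4.56%). The KO effects differed between the lines for 0 members (background 0.261% and 0.136%, 2 at an unadjusted p under 0.05 beside 9.38%, 5 higher and 1 lower by DESeq2 beside 7.82% and 5.88%). The 11 members not tested were the 6 without islands and Krt33a, Krt42, Krt83, Krt1 and Krt79. The median log2 change of the tested members was 0 in MC38 and 0.57 in B16, beside 0 over all regions in each. In B16, 27 of 38 were above 0 and 9 below, beside 11604 above and 10507 below of all 25675 regions. Of the 38, 11 had no island in B16 control libraries, and the fitted values of such members are no measure of size.

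Libraries separated KO from control without overlap at 3 members in B16, 2 higher and 1 lower, and at 0 in MC38. Over all regions the shares were 5.89% higher and 9.44% lower in B16, and 0.596% and 1.73% in MC38. Krt27 had islands in B16 KO libraries alone, at 17.7, 34.7 and 16.8 RPM, and none in B16 control or MC38 libraries. The stretch under an island in all 3 B16 KO libraries, chr11:99351201-99352800, starts just beyond the 5′ end of Krt27 and takes in part of the promoter printed above. The adjusted p was 0.51. Krt33b, a hair keratin, held 29.9, 10.2 and 8.97 RPM in B16 KO, against 4.87, 8.18 and 0 RPM in B16 control libraries (adjusted p = 1). Without B16 KO replicate 1, 12 members were higher and 1 lower in B16 KO without overlap, and the shares of all regions were then 14.7% and 11.5%. Without B16 control replicate 3, 2 were higher and 4 lower (7.83% and 15.2%). Without B16 KO replicate 2, 5 were higher and 2 lower (9.13% and 12.1%), and without replicate 3, 3 and 1 (8.83% and 11.4%). Without B16 control replicate 1, 3 were higher and 2 lower (9.19% and 12.4%), and without replicate 2, 5 and 1 (9.88% and 12.9%).

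Krt78 was the member that was lower in B16 KO. It held 40.1, 17.5 and 34.7 RPM in B16 KO, against 61.6, 68.6 and 59.7 RPM in B16 control libraries, and none in MC38. Every B16 KO library was below every control, at a log2 difference of -1.04 (SE 0.884), and edgeR did not call it (adjusted p = 1).

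Between the lines, the members called by edgeR were all lower in MC38, at counts too small to set apart from the shares of all regions. MC38 controls were higher than B16 controls at 0 and lower at 2 of 38 tested members, beside 2.82% and 4.31% of all regions, and MC38 KO cells were higher at 0 and lower at 4 than B16 KO cells, beside 2.98% and 5.02%. DESeq2 called 3 higher and 10 lower in controls (15.6% and 18.1% of regions) and 0 higher and 13 lower in KO cells (14.5% and 20.1%). The median member differed by -2.07 log2 in controls and by -6.90 log2 in KO cells, where the medians over all regions were -0.20 and -0.20. Of the 38 members, 19 had no island in MC38 KO and 17 none in MC38 control libraries, and the fitted values of such members are no measure of size. Libraries did not overlap at 10 members in controls, all lower in MC38 (20.7% of all regions were lower and 13.6% higher without overlap), and at 12 in KO cells, again all lower (19.5%; 8.76% were higher).

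Krt78 and Krt23 were lower in MC38 in both genotypes. Krt78 had no H3K9me3 island in the 6 MC38 libraries, and its adjusted p was 0.00552 between the KO groups and 0.00593 between the controls. Its H3K9me3 in B16 lay at the border with Krt8, the simple-epithelium keratin next to it: chr15:101995001-101996400, inside the Krt78 gene model, was under an island in all 6 B16 libraries. The region of Krt8 overlaps that of Krt78 and was called lower in MC38 too, with no MC38 island. It held 10.9, 17.5 and 14.6 RPM in B16 KO (adjusted p = 0.0228) and 23.2, 15.2 and 18.8 RPM in B16 control libraries (adjusted p = 0.0257). Islands in the overlap count for both genes, so the Krt8 difference is not separate from that of Krt78. In B16 KO replicate 2 the same island of 154 reads lay behind the values of both. Krt23, a type I keratin, had no MC38 island, against 16.6, 69.4 and 25.7 RPM in B16 KO (adjusted p = 0.00859) and 30.7, 28.8 and 32.7 RPM in B16 control libraries (adjusted p = 0.0109).

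Krt75, of the companion layer of the hair follicle, and Krt88 were called lower in MC38 between the KO groups alone. Krt75 held 12.9, 31.8 and 9.60 RPM in B16 KO (adjusted p = 0.0382) and 3.61, 20.1 and 8.21 RPM in B16 control libraries (adjusted p = 0.0543), with no MC38 island. Krt88 held 3.82, 23.6 and 21.3 RPM in B16 KO (adjusted p = 0.0439) and 24.8, 29.4 and 2.38 RPM in B16 control libraries (adjusted p = 0.0507), again with no MC38 island. The islands of both lay largely outside the genes: without the 2 kb flanks the adjusted p between the KO groups was 0.255 for Krt75 and 0.179 for Krt88. The stretch shared by the 6 B16 libraries near Krt88, chr15:101455601-101458000, lies between Krt88 and Krt81, and all 2400 bp of it are outside both gene bodies. Leaving out 1 library ended the call of Krt75 in 9 of 12 cases (adjusted p up to 0.122, without B16 KO replicate 2) and that of Krt88 in 7 of 12 (up to 0.114, without the same library). The count between controls was 4 without MC38 KO replicate 1 or 3, where Krt75 and Krt88 joined, 5 without MC38 KO replicate 2, where Krt6a joined as well, and 3 without MC38 control replicate 2 (Krt24), B16 KO replicate 1 (Krt222) or B16 control replicate 3 (Krt25). Between the KO groups it was 2 without B16 control replicate 1 or 2, MC38 KO replicate 1 or 3 or B16 KO replicate 2 or 3, and 6 without MC38 control replicate 1.

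H3K9Ac covered fewer keratin genes than other genes. Islands lay at 19, 14 and 21 members in MC38 KO, 15, 14 and 22 in MC38 control, 16, 13 and 34 in B16 KO and 24, 8 and 29 in B16 control libraries. This was 16.3% to 69.4% of members, where 71.2% to 76.8% of all protein-coding regions had an island. In 4 members it was present in all 12 libraries (Krt222, Krt78, Krt80 and Krt81), and 9 had none in any library (Krt39, Krt34, Krt32, Krt35, Krt9, Krt14, Krt6b, Krt6a and Krt76). The third replicates of B16 stood apart, with 56.2% of the chromosome 15 member regions under islands in KO and 59.1% in control, where the other 10 libraries had 18.6% to 37.9%. On chromosome 15 members summed to 207, 174 and 137 RPM in MC38 KO and 143, 155 and 174 RPM in MC38 control, against 186, 161 and 376 RPM in B16 KO and 260, 170.0 and 408 RPM in B16 control libraries. On chromosome 11 the sums were 43.0, 31.0 and 68.3 RPM in MC38 KO and 29.1, 37.7 and 66.5 RPM in MC38 control, against 19.5, 25.5 and 89.7 RPM in B16 KO and 21.8, 13 and 106 RPM in B16 control libraries. Replicate 3 was the highest library of its group in all groups on chromosome 11. On chromosome 15 it was the highest in 3 of them and the lowest in MC38 KO.

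**Figure D4:**
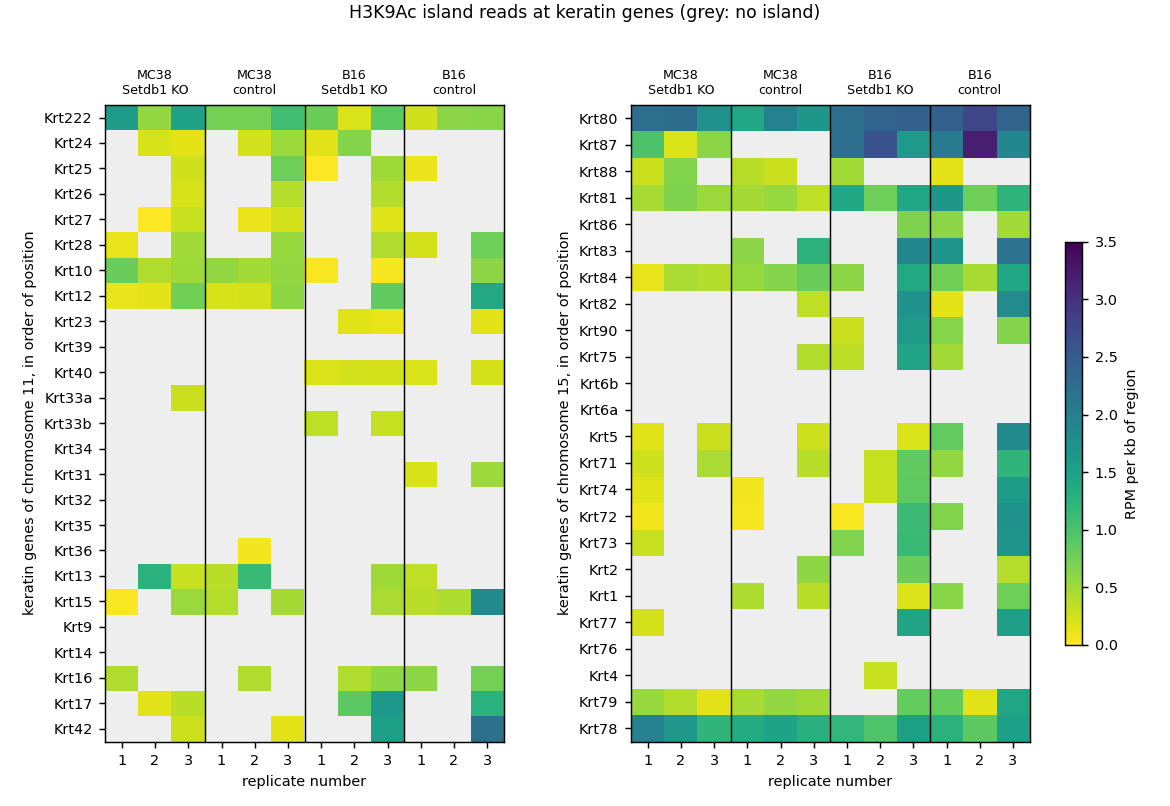
H3K9Ac RPM per kb of region (color) for each keratin gene (rows, in order of position) in the 12 libraries (columns, by group and replicate number), chromosome 11 left and chromosome 15 right; grey means no island. Krt80, Krt78, Krt81 and Krt222 are colored in every column, Krt87 in all but the MC38 controls, and the third B16 replicates are colored over most of chromosome 15.

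Of the skin keratins, Krt1, Krt5, Krt6a and Krt14 had little or no H3K9Ac, while Krt80 (below) had islands in all 12 libraries. Krt14 and Krt6a had no island. Krt5 had 1.67 and 2.74 RPM in MC38 KO replicates 1 and 3, 2.56 RPM in MC38 control replicate 3, 1.91 RPM in B16 KO replicate 3, and 8.31 and 18 RPM in B16 control replicates 1 and 3. Krt1 had 4.02 and 3.58 RPM in MC38 control replicates 1 and 3, 1.74 RPM in B16 KO replicate 3 and 5.80 and 7.24 RPM in B16 control replicates 1 and 3. KO and control libraries overlapped at Krt5 and at Krt1 in both lines.

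Krt10 had H3K9Ac islands in all MC38 libraries, as had Krt80. It held 12.8, 6.83 and 8.16 RPM in MC38 KO and 9.29, 7.95 and 9.24 RPM in MC38 control, against 0.484, 0 and 0.76 RPM in B16 KO and 0, 0 and 9.80 RPM in B16 control libraries. The KO groups of the lines did not overlap, but the test gave a log2 difference of 4.48 (SE 2.51, adjusted p = 0.264). The control groups overlapped through B16 control replicate 3, and without it Krt10 was called higher in MC38 controls (adjusted p = 0.0167).

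Krt15 and Krt17 carried H3K9Ac in part of the libraries. Krt15, of basal and hair follicle bulge cells, held 0.233, 0 and 4.28 RPM in MC38 KO and 3.21, 0 and 3.85 RPM in MC38 control, against 0, 0 and 3.61 RPM in B16 KO and 2.98, 3.56 and 15.0 RPM in B16 control libraries. Krt17 held 0, 1.44 and 3.13 RPM in MC38 KO and no island in MC38 control, against 0, 7.80 and 14.4 RPM in B16 KO and 0, 0 and 11.1 RPM in B16 control libraries. Krt16 had at most 4.95 RPM, in B16 control replicate 3. KO and control overlapped at all 3 in each line.

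Krt12, the cornea keratin, held 1.38, 1.56 and 8.19 RPM in MC38 KO and 2.29, 2.46 and 6.53 RPM in MC38 control, against 9.38 RPM in B16 KO replicate 3 and 15.2 RPM in B16 control replicate 3 alone. Krt222, a keratin-like gene, led chromosome 11 for H3K9Ac with 24.2, 8.63 and 23.1 RPM in MC38 KO and 11.3, 11.3 and 16.5 RPM in MC38 control, against 12.1, 3.03 and 13.6 RPM in B16 KO and 3.91, 9.45 and 9.60 RPM in B16 control libraries. MC38 controls were all above B16 controls at Krt222, at a log2 difference of 0.77 (SE 0.59, adjusted p = 0.404). The stretch under islands in all 12 libraries, chr11:99228801-99231600, lies before the Krt222 gene and runs over the end of Smarce1, a chromatin remodelling gene, so part of the Krt222 value belongs to the 2 kb flank. In the 6 MC38 libraries islands also covered chr11:99234001-99235000 inside Krt222. Islands of B16 KO replicates 1 and 3 and of B16 control replicates 2 and 3 covered it too.

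Krt80, a type II epithelial keratin, and Krt78 held the most H3K9Ac of all members. Krt80 had 57.8, 58.5 and 43.9 RPM in MC38 KO and 36.4, 50.8 and 42.6 RPM in MC38 control, against 57.6, 61.1 and 62.4 RPM in B16 KO and 62.7, 71.4 and 61.4 RPM in B16 control libraries. The stretches chr15:101348601-101356800 and chr15:101365201-101370400 were under islands in all 12 libraries, and Krt80 had no H3K9me3 island in any. Krt78 had 106, 89.3 and 65.8 RPM in MC38 KO and 73.8, 80.5 and 69.6 RPM in MC38 control, against 64.4, 52.6 and 82.9 RPM in B16 KO and 68.4, 47.8 and 83.5 RPM in B16 control libraries. Groups overlapped at Krt78 in every comparison. The longest stretch shared by the 12 libraries at Krt78 was chr15:101970801-101978800, inside its long gene model and upstream of the promoter printed above.

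Setdb1 KO gave a single called H3K9Ac difference among the keratin genes, at Krt87 in MC38, and with the paired replicate numbers as a block it was lost (0 called, adjusted p = 0.096). Of 38 tested members (17 on chromosome 11 and 21 on chromosome 15), 1 was higher and 0 lower in MC38 KO than in MC38 control, beside 0.0839% and 0.042% of all 33359 regions tested, 1 had an unadjusted p under 0.05 (3.13% of all regions), and DESeq2 called 3 higher and 3 lower (1.64% and 1.23%). In B16 KO against B16 control 0 were called in each direction (background 0.063% and 0.021%), 1 had an unadjusted p under 0.05 (4.12% of all regions), and DESeq2 called 0 (1.85% and 1.51%). Without B16 KO replicate 3, Krt79, an epithelial type II keratin, was called lower in B16 KO (adjusted p = 0.0438); with all libraries it held 0, 0 and 12.5 RPM in B16 KO, against 12.5, 2.5 and 21.7 RPM in B16 control. The median log2 change of the members was 0 in MC38 and -0.09 in B16, beside 0 and 0 over all regions. The 11 members not tested were the 9 without islands and Krt33a and Krt36.

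Krt87, a type II hair keratin, held 11.01, 2.20 and 6.84 RPM in MC38 KO libraries and no island in the 3 MC38 control libraries, and 25.3, 29.6 and 18.3 RPM in B16 KO, against 23.3, 36.3 and 21.3 RPM in B16 control libraries. All MC38 KO libraries were above the MC38 controls, while KO and control overlapped in B16. The adjusted p was 0.00592 in MC38 and 1 in B16, and the KO effects of the lines differed (adjusted p of the interaction 0.01, lower in B16 than in MC38). Called interactions were 0 higher and 1 lower among the 38 members, beside 0.0779% and 0.0959% of all regions. The numbers of the replicates paired the H3K9Ac libraries, and with them as a block the adjusted p was 0.096 in MC38 and 0.121 for the interaction. It was 0.741 and 0.921 without the flanks, and 1 in a fit of the 6 MC38 libraries.

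The islands behind the Krt87 value differed between the MC38 KO libraries. In replicate 1 an island of 16800 bp ran from Krt7 into Krt87 (chr15:101419001-101435800) beside a second of 1000 bp in the gene. Replicate 2 had a single island of 800 bp and 89 reads (chr15:101439401-101440200), past the gene end and within the flank. Replicate 3 had 3400 bp with 192 reads inside the gene (chr15:101432201-101435600). No 200 bp was under an island in all 3. In the 6 B16 libraries chr15:101431201-101435800 and chr15:101437401-101440200 were shared.

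Krt84, a type II hair keratin, was the member whose libraries were lower in MC38 KO without overlap, with 1.55, 5.17 and 4.81 RPM in MC38 KO, against 6.42, 7.71 and 9.30 RPM in MC38 control. The log2 difference was -1.02 (SE 1.48, adjusted p = 1). Krt87 and Krt84 were thus the 2 members without overlap in MC38 (1.92% of regions were higher and 1.87% lower without overlap), and in B16 there were 0 (4.73% and 3.35%).

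**Figure D5:**
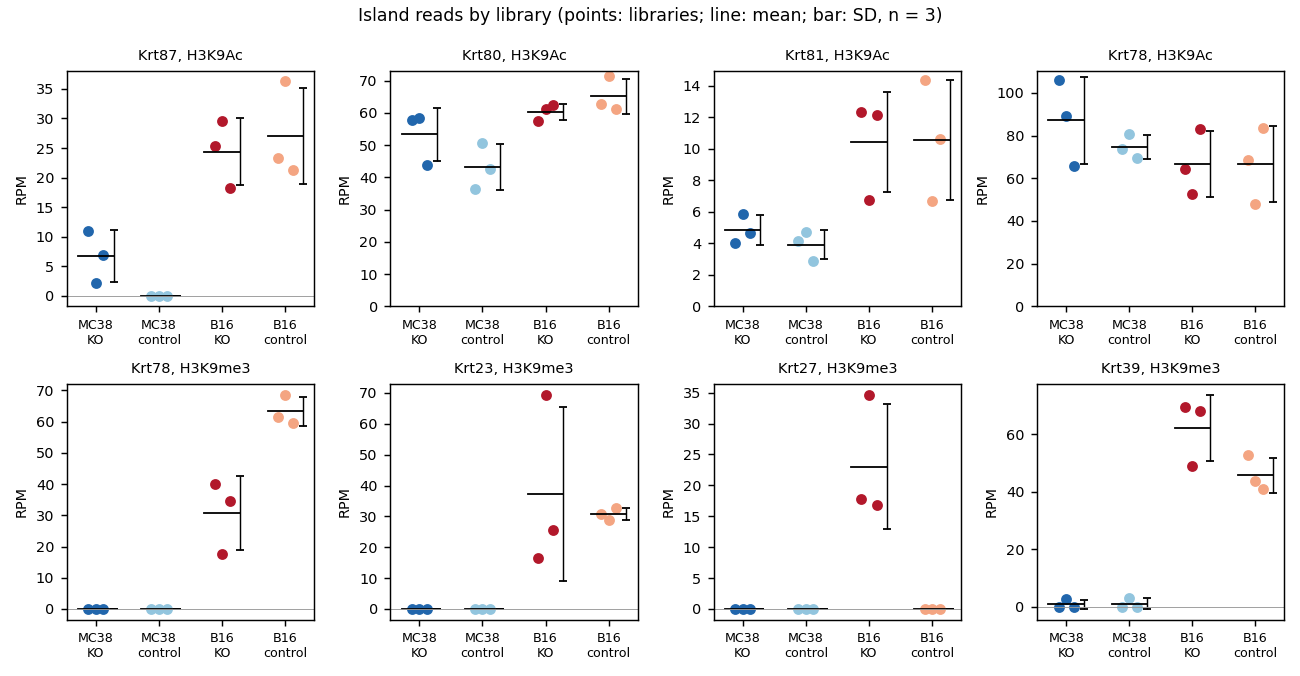
RPM (vertical axes, each from 0) by library for 8 pairs of gene and mark in MC38 KO, MC38 control, B16 KO and B16 control; points are libraries, lines means and bars SD (n = 3). Krt87 H3K9Ac is present in MC38 KO and at 0 in the 3 MC38 controls, Krt78 H3K9me3 is lower in every B16 KO than in every B16 control library, and Krt27 H3K9me3 is present in B16 KO alone.

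H3K9Ac was lower in MC38 controls at 3 genes near the start of the chromosome 15 cluster, Krt80, Krt81 and Krt87. This count is too small to set apart from the share of all regions. In controls, 0 members were higher and 3 lower in MC38 than in B16, where 9.81% and 9.6% of all regions were called and DESeq2 called 1 higher and 9 lower (17.8% and 17.5%). In KO cells 0 were called in each direction (background 8.84% and 9.04%), with 4 at an unadjusted p under 0.05 (30.3% of all regions) and 0 higher and 9 lower by DESeq2 (17% and 16.7%). Krt80 libraries did not overlap between the controls of the lines and overlapped between the KO groups. Krt80 differed by -0.59 log2 between the controls (SE 0.144, adjusted p = 0.0165) and by -0.18 log2 between the KO groups (SE 0.143, adjusted p = 0.448), and the interaction was not called (adjusted p = 1). Krt81, of the hair shaft, held 4.00, 5.89 and 4.63 RPM in MC38 KO and 4.13, 4.73 and 2.89 RPM in MC38 control, against 12.4, 6.76 and 12.2 RPM in B16 KO and 14.4, 6.70 and 10.6 RPM in B16 control libraries. No MC38 library reached a B16 library at Krt81, with a log2 difference of -1.43 in controls (SE 0.408, adjusted p = 0.0345) and -1.11 in KO cells (SE 0.405, adjusted p = 0.091). Of the 1000 bp at Krt81 under islands in all 12 libraries, 340 bp lay in the gene and the rest in the flank. Krt87 had an adjusted p of 0.000176 between the controls, and in KO cells a log2 difference of -1.87 (SE 0.544, adjusted p = 0.0514), which passed without MC38 KO replicate 1 (0.0304) or 2 (0.0438) or MC38 control replicate 1 (0.0478) or 3 (0.0496). With the replicate block a further member, Krt90, was called lower in MC38 controls (adjusted p = 0.0487), and Krt80, Krt81 and Krt87 were called there too.

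Without overlap, 1 member was higher (Krt222) and 3 lower in MC38 controls than in B16 controls (19.3% and 19.5% of all regions), and 1 was higher (Krt10) and 3 lower (Krt40, Krt81 and Krt87) in MC38 KO than in B16 KO (18.9% and 20.4%). In the KO groups Krt40 was called lower in MC38 without B16 control replicate 2 (adjusted p = 0.0287) and Krt79 was called higher in MC38 without B16 KO replicate 3 (adjusted p = 0.00353). Leaving out MC38 control replicate 1 or 3 brought the count in controls to 1, with an adjusted p of Krt80 of 0.0679 and 0.0515, and without B16 control replicate 2 that of Krt80 was 0.0629. Krt81 lost its call without 7 of the 12 libraries in turn, with an adjusted p of up to 0.129 without B16 control replicate 1.

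Of the 5 excluded simple keratins, Krt8 was called higher in MC38 for H3K9Ac in both genotypes, and Krt7 lower between the KO groups alone. Krt8 held more H3K9Ac in MC38, 34.5, 36.3 and 24.9 RPM in MC38 KO and 39.7, 42.2 and 21.2 RPM in MC38 control, against 6.26, 7.51 and 13.8 RPM in B16 KO and 10.9, 6.97 and 18 RPM in B16 control libraries. Its log2 difference was 1.52 in controls (SE 0.424, adjusted p = 0.0313) and 1.79 in KO cells (SE 0.428, adjusted p = 0.0164). Krt7, the neighbour of Krt87, was lower in MC38 KO than in B16 KO by -0.90 log2 (SE 0.265, adjusted p = 0.0415). Between the controls it differed by -0.84 log2 and was not called (SE 0.265, adjusted p = 0.0519). Of the 5 simple keratins none was called between KO and control in either line and mark.

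Other genes of keratinizing epithelia are given by counts. Of 56 keratin-associated protein genes, partners of hair keratins in the hair shaft, 48 were tested for H3K9me3; 0 were higher and 4 lower in MC38 controls (2.82% and 4.31% of all regions) and 0 higher and 5 lower in MC38 KO cells (2.98% and 5.02%) than in B16. Of 16 tested for H3K9Ac, 2 were higher and 0 lower in each genotype, beside 9.81% and 9.6% of all regions in controls and 8.84% and 9.04% in KO cells, shares that also stand beside the next counts. Of 18 epidermal regulators tested for H3K9Ac, 5 were higher and 1 lower in MC38 controls, and 4 higher and 1 lower in MC38 KO cells. Of 10 desmosome and cornified envelope genes, 1 was higher in MC38 controls and 0 in MC38 KO cells, and 0 were lower. No tested gene of these 3 lists was called between KO and control in either line and mark. For H3K9me3, 5 of the 18 epidermal regulators and 5 of the 10 desmosome and cornified envelope genes were tested.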

How the data were processed

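H3K9me3 and H3K9Ac chromatin immunoprecipitation libraries (24) were analysed; the 4 inputs were not used. Per the submitters' processing notes, cutadapt, Bowtie2 2.1.0, SAMtools 0.1.8, SICER 1.1 and deepTools 3.1.1 were used on build mm10. Each deposited file gives, per the file contents, the read count of each island; the background input and read filters are not given in the sources used here. From these counts, each island's reads were assigned to gene regions (2 kb flanks) by the share of its length inside them. All 12 libraries of a mark were fitted together with edgeR 4.0.16 (R 4.3.3, TMM scaling, quasi-likelihood test, mean of at least 10 reads, 5 contrasts), and Benjamini-Hochberg adjusted p-values under 0.05 over all regions were called. In data simulated with a spread (dispersion) of 0.05, it found 43 of 100 2-fold changes for H3K9me3 and 56 of 100 for H3K9Ac. All 100 4-fold changes were found for each mark. Groups without islands were not simulated, so this does not measure the power at the keratin genes. Alternatives used DESeq2 1.42.0 and other settings.

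The members and lists were chosen with earlier results of these data known. Named genes were those called, the 4 densest per mark and cluster, those without overlap between KO and control, and listed skin keratins. Same-numbered H3K9Ac libraries deviated together (correlations of 0.226, 0.47 and 0.426 in B16 and 0.122, 0.434 and 0.334 in MC38). The main fit did not use this pairing for either mark. A fit with the replicate number as a block was run beside it, and its p-values are named as such. Read numbers cover counting error only.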

Additional observations from a re-analysis of the deposited data

Results flagged for a closer look

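The effect of Setdb1 KO on H3K9Ac at the hair keratin gene Krt87 differed between the lines, by the interaction term of edgeR's quasi-likelihood test (adjusted p = 0.01). MC38 KO libraries held 11.01, 2.20 and 6.84 RPM, against no island in MC38 control libraries, while B16 KO libraries held 25.3, 29.6 and 18.3 RPM, against 23.3, 36.3 and 21.3 RPM in B16 control libraries. With the replicate block the adjusted p was 0.121, and without the flanks 0.921.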

How the results depend on the processing

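DESeq2 in place of edgeR called more members in most comparisons. For H3K9me3 it called 4 members in MC38 KO against control, 4 in B16 KO against control, 6 for the difference of KO effects, 13 between the controls of the lines and 13 between the KO groups. For H3K9Ac it called 6 in MC38, 6 for the difference of KO effects, 10 between controls and 9 between KO groups. For the difference of H3K9Ac KO effects, DESeq2 called 2.16% of regions higher and 2.4% lower. The shares for its other counts are given above. With the replicate number as a block, H3K9me3 calls were 0 between the controls and 0 between the KO groups, and H3K9Ac calls were 0 in MC38 and 0 for the difference of KO effects. With it, the H3K9me3 difference between the lines was not called at Krt78 (adjusted p = 0.0659 between controls and 0.065 between KO groups) or Krt23 (0.0927 and 0.0798). Same-numbered H3K9me3 libraries did not all deviate together (correlations of 0.298, 0.213 and -0.247 in MC38 and 0.201, 0.162 and 0.012 in B16). Without flanks, H3K9Ac calls were 0 in MC38 and 0 for the difference of KO effects, and a fit of the MC38 libraries gave 0. Without the filter on low counts, 2 members were called for H3K9me3 between the KO groups. For H3K9Ac between the KO groups, 1 was called with DESeq2 size factors and 2 with stricter islands. Leaving out 1 library in turn, H3K9me3 calls ran from 2 to 5 between controls and from 2 to 6 between KO groups, and were 0 to 0 within each line. H3K9Ac calls ran from 1 to 3 between controls, 0 to 1 between KO groups, 1 to 1 in MC38 and 0 to 1 in B16. The cause of these differences was not tested. No called difference changed direction under the alternatives run, but the balance of members without overlap did. For H3K9me3 in B16 it was 2 higher and 1 lower with all libraries, and 2 higher and 4 lower without B16 control replicate 3. For H3K9Ac in B16 it was 0 and 0 with all libraries. It was 2 higher and 0 lower without B16 KO replicate 2, and 0 higher and 5 lower without B16 control replicate 2. An island caller reports no value below its threshold, so low signal is not seen at any depth.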
